A study of Rattus norvegicus with 4 samples.

Results

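The genes described here make and use lactate and pyruvate or control the pyruvate dehydrogenase complex. They are the lactate dehydrogenase genes Ldha and Ldhb, the complex subunit genes Pdha1, Pdhb and Dlat, the pyruvate dehydrogenase kinase genes Pdk1, Pdk2, Pdk3 and Pdk4, and the phosphatase gene Pdp1. A non-control probe was taken as a member when the transcript accession that the array file lists for it belonged to one of these 10 genes. This gave 18 of 45598 non-control probes, with at least 1 for each of the 10 genes. The cells were oligodendrocyte precursor cells (OPCs) from pooled cortices of Sprague-Dawley rats at postnatal day 2, grown for 3 days with bFGF and PDGF and then switched to differentiating medium. At the switch they received 50 nM of a pool of siRNAs against Gpr17 (siGPR17) or of a non-targeting RNA pool (siNEG), both with the lipid reagent Lipofectamine RNAiMAX. RNA was taken 48 h later, at day 2 of maturation, and labelled with Cy3 for 4 one-color Agilent arrays, 2 with siNEG and 2 with siGPR17 samples. The series calls the 2 samples of a condition independent, and nothing else says that they came from separate cultures. Because cortices were pooled, p-values here may measure only the spread between these samples.

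Glycolysis ends in pyruvate, which has several fates. Lactate dehydrogenase, a tetramer of the A subunit encoded by Ldha and the B subunit encoded by Ldhb, interconverts pyruvate and lactate in the cytosol. In mitochondria the pyruvate dehydrogenase complex turns pyruvate into acetyl-CoA, which feeds the Krebs cycle and, through citrate, the synthesis of the fatty acids and cholesterol that myelin needs. The pyruvate dehydrogenase kinases phosphorylate the E1 alpha subunit and switch the complex off, and the phosphatases switch it on again. The comparison asks how the transcripts of these enzymes differ when Gpr17, a receptor that OPCs express transiently while they mature, is silenced.

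Signals below are linear values, scaled so that every array has the same 75th percentile, and have no absolute unit. A probe was tested when it was well above background, as the scanner software judged it, on at least 2 of the 4 arrays. Between 26997 and 28244 probes were well above background on an array, and 0 non-control spots were saturated. Of the 18 probes 17 were tested, in 9 of the 10 genes. The tested gene is represented by its brightest probe, and other probes are given beside it. Only 3 splits of 4 arrays into equal groups exist, which sets the smallest two-sided p of an exact permutation test at 0.333. The arrays shared 1 slide and 1 scan. Both siNEG arrays lay in column 4 of the slide and both siGPR17 arrays in column 3, so column and treatment cannot be told apart.

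The targeted gene had signals of 1107 and 1113 in the siNEG arrays and of 652 and 639 in the siGPR17 arrays (Gpr17, probe A_64_P018212). Both siGPR17 arrays were below both siNEG arrays, in the direction that the labels give. The log2 fold change was -0.78 (95% confidence interval -1.01 to -0.55), with a Benjamini-Hochberg adjusted p of 0.209 from limma, 0.0152 with the trend option described below and 0.0220 with normexp background correction. Of the oligodendrocyte lineage, Olig1, Olig2, Sox10, Pdgfra, Cspg4, Mbp, Cnp and Mog were each well above background on all 4 arrays. Mbp, which encodes myelin basic protein, gave 197178 and 227699 in siNEG and 256521 and 272873 in siGPR17 arrays. Cspg4, the precursor marker NG2, gave 16311 and 17821 in siNEG and 12342 and 12092 in siGPR17 arrays. In both siGPR17 arrays Mbp was thus higher and Cspg4 lower than in both siNEG arrays, and the part of cell maturity in the results below was not tested.

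Genes used as markers of other cell types were also detected. All 5 astrocyte markers were well above background on the 4 arrays, with sums of 7488 and 8101 in siNEG and of 5994 and 5896 in siGPR17 arrays, mostly from Slc1a3. All 5 neuron markers were too, with sums of 6717 and 8010.1 in siNEG and of 6567 and 6299.8 in siGPR17 arrays, mostly from Map2. Of 5 microglia markers 4 were, led by Cx3cr1, with sums of 3196 and 1719 against 1823 and 2337, and Csf1r was so on 0 arrays. Of 4 endothelial markers 2 were, led by Kdr, with sums of 279 and 303 against 439 and 441, and Pecam1 and Cldn5 were so on 0 arrays. Of 4 fibroblast and mural markers only Col1a1 was, with list sums of 51.0 and 31.9 against 58.3 and 41.8, and Dcn, Lum and Pdgfrb were so on 0 arrays. The sums of the astrocyte and neuron lists were lower and those of the endothelial list higher in both siGPR17 arrays than in both siNEG arrays. All 5 neuron markers, all 4 detected microglia markers and 3 of 5 astrocyte markers had a log2 fold change below 0, and the part of these cell types in the results below was not tested. In RNA of whole cultures, fewer cells of a type and less RNA per cell cannot be told apart. Nor do the arrays show which cells the RNA of a marker came from.

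Ldha and Pdk1 had the highest fold changes of the 9 tested genes and Pdk3 the lowest, while Ldhb, Pdha1 and Pdhb overlapped between the groups. Whether isoforms of an enzyme differ from each other is read from their ratios within arrays, given below, whose exact permutation test cannot go under 0.333 here. The thresholds were those of the study's methods, at least 1.5-fold either way with the adjusted p below 0.07. With them limma with Benjamini-Hochberg adjustment called 0 of the 9 genes, against 0.00% of the 11656 genes tested, and the methods' t-test also called 0 of 9 (0.00% of all genes). With eBayes run with a trend of spread on signal and robust to outlying genes (the trend option), limma called 0 of 9 (1.58% of all genes), and with normexp background correction 0 of 9 (0.961%). An unadjusted p under 0.05 was given to 3 of the 9 in limma (16.2% of all genes), Ldha and Pdk1 with higher and Pdk3 with lower signals in siGPR17 OPCs. By the methods' t-test 4 had one (14.4% of all genes), by the trend option 4 (20.8%) and by normexp 3 (19.6%). A fold of 1.5 was reached by 0 of the 9, against 5.08% of all genes. The groups did not overlap in 6 of 9 genes, against 53.4% of all genes: 4 were higher (28.1% of all genes) and 2 lower (25.3%). The median log2 fold change of the 9 genes was 0.021, beside 0.0099 over all tested genes. The choice of these genes was made with their results known, and the shares of all genes are given as the background for the counts.

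**Figure D1:**
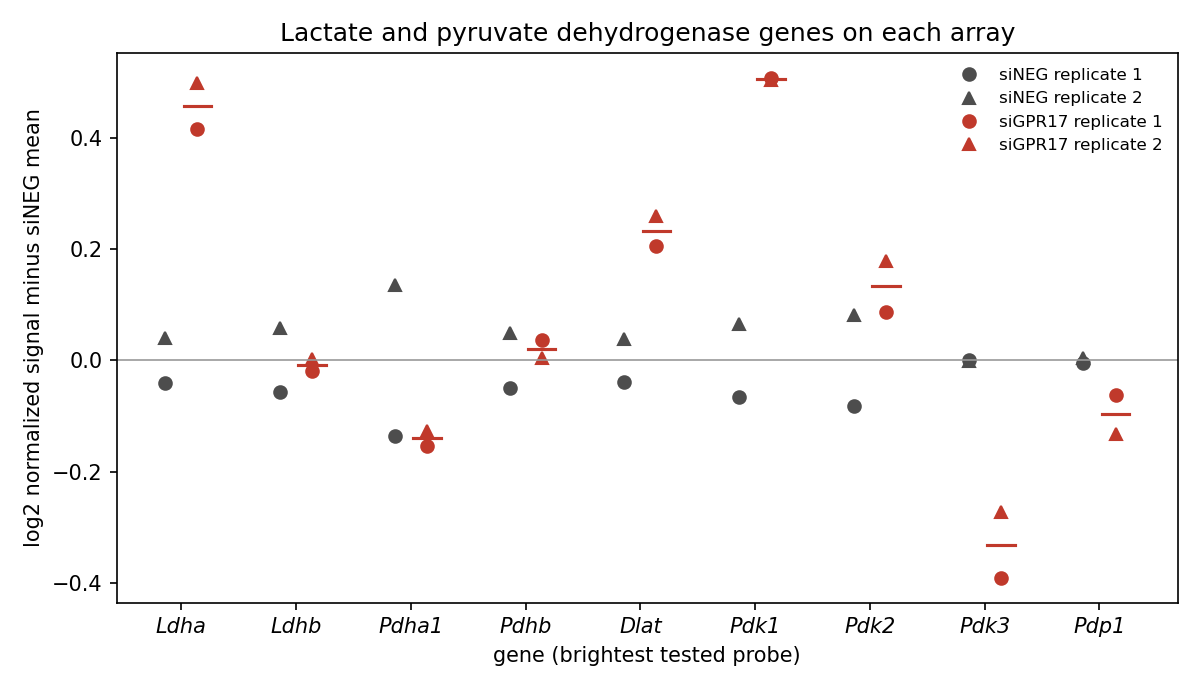
Normalized log2 signal of the brightest tested probe of each gene, minus the mean of the siNEG arrays, for each of the 4 arrays (circles, replicate 1 and triangles, replicate 2; bars, mean of the siGPR17 arrays). Both siGPR17 arrays lie above both siNEG arrays for Ldha, Dlat, Pdk1 and Pdk2 and below them for Pdk3 and Pdp1, and the groups overlap for Ldhb, Pdha1 and Pdhb.

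Ldha encodes the A (muscle) subunit of lactate dehydrogenase. Its brightest probe, A_44_P1164248, gave signals of 166983 and 176492 in the siNEG arrays and of 229039 and 242481 in the siGPR17 arrays. Every siGPR17 array was above every siNEG array, by more than the difference between replicates. The log2 fold change was 0.46 (standard error, SE, 0.093; 95% confidence interval 0.20 to 0.71), with an adjusted p of 0.211 from limma, and it was higher than in 95.6% of the 11656 genes. Over the alternative settings it lay between 0.39 and 0.61 and the adjusted p between 0.0468 and 0.706.

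Both other Ldha probes differed more, and in the same direction. For A_64_P016403 the signals were 95567 and 102782 in siNEG and 146519 and 156835 in siGPR17 arrays, a log2 fold change of 0.61 (95% confidence interval 0.35 to 0.88). For A_44_P1362456, which is printed at 10 places on the array, they were 19125 and 18752 in siNEG and 30597 and 33969.8 in siGPR17 arrays, a log2 fold change of 0.77 (95% confidence interval 0.50 to 1.04). The 10 spots of this probe agreed closely within an array, with a coefficient of variation between 1.56% and 2.43%, and on 1 siNEG array 8 of them were free of outlier flags. The confidence intervals of the 3 probes overlap. The raw signal of the brightest probe was between 3452 and 4792 times the local background, and none of its spots was saturated. The gene table used for names lists 30 pseudogenes of Ldha, and whether any probe also binds their transcripts was not tested.

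Ldhb encodes the B (heart) subunit. Its only probe, A_44_P414066, gave 13869 and 15022 in the siNEG arrays and 14239.6 and 14452 in the siGPR17 arrays. Both siGPR17 arrays lay between the siNEG arrays. The log2 fold change was -0.0089 (SE 0.093, adjusted p = 0.970 from limma), with a 95% confidence interval of -0.26 to 0.25, which leaves room for a change of that size either way. Its sign turned with the scaling and with the array left out, from 0.12 when arrays were scaled on their E1A spike-in probes to -0.067 without siNEG replicate 1. This probe too is printed at 10 places, with a coefficient of variation between 2.06% and 3.21% within an array.

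The ratio of Ldha to Ldhb within an array is the same whatever factor an array is scaled by, though quantile normalization can alter it. Relative to the mean of the siNEG arrays, its log2 was 0.018 and -0.018 in siNEG and 0.44 and 0.50 in siGPR17 OPCs. The siGPR17 arrays were both above the siNEG arrays, and the difference of 0.47 was larger than the pooled SD of replicates, 0.035 (n = 2 per group). The ratio was 1.38-fold higher, with a p of 0.333 in the exact two-sided permutation test, the smallest it can give here. Of 10 planned pairs 7 could be compared, and adjustment over them leaves each of their p-values at 0.333. In none of the 7 did the groups overlap, and the share over pairs of other genes was not computed. With all 3 Ldha probes averaged the difference was 0.62. A ratio shows unequal change of the 2 genes and not that either of them was unchanged.

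The E1 part of the pyruvate dehydrogenase complex decarboxylates pyruvate, and Pdha1 and Pdhb encode its alpha and beta subunits. The brightest Pdha1 probe, A_44_P1087018, gave 3827 and 4622 in siNEG and 3783 and 3850.0 in siGPR17 arrays. The siNEG arrays differed more from each other than the siGPR17 arrays did, and 1 siNEG array was between both siGPR17 arrays. Its log2 fold change was -0.14 (SE 0.13, 95% confidence interval -0.49 to 0.21). Without siNEG replicate 1 it was -0.28, and without siNEG replicate 2 it was -0.0041. With the E1A spike-in scaling it was -0.012 and with the mean of all 3 probes -0.084, so that its size rests on the siNEG arrays, the scaling and the probe.

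Both dimmer Pdha1 probes gave no other picture. A_44_P1361841 had signals of 333 and 357 in siNEG and of 359 and 340.4 in siGPR17 arrays, with a log2 fold change of 0.020. A_44_P1137413 had 217 and 214 in siNEG and 209 and 186 in siGPR17 arrays, with a log2 fold change of -0.13 (95% confidence interval -0.41 to 0.15). Only in the last probe were both siGPR17 arrays below both siNEG arrays, and the first of them was nearer to the siNEG arrays than to the other siGPR17 array. Pdhb, probe A_44_P433425, had 6176 and 6612 in siNEG and 6557 and 6409 in siGPR17 arrays. Both siGPR17 arrays lay between the siNEG arrays, with a log2 fold change of 0.021 (95% confidence interval -0.23 to 0.27), which became -0.029 without siNEG replicate 1.

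Dlat encodes the E2 subunit, the lipoyl-bearing core that passes the acetyl group to coenzyme A. Its brighter probe, A_44_P1083937, gave 878 and 926 in siNEG and 1039.9 and 1079.8 in siGPR17 arrays. The groups did not overlap, and the log2 fold change was 0.23 (SE 0.090, 95% confidence interval -0.014 to 0.48, adjusted p = 0.313 from limma). The other probe, A_44_P1141907, gave 772 and 749 in siNEG and 911 and 879 in siGPR17 arrays, again without overlap and with a log2 fold change of 0.23. The 2 probes thus agreed in direction and size, and the interval of each reached just below 0.

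Between the subunits, the within-array log2 ratios of Pdha1 and Pdhb to Dlat were lower in siGPR17 OPCs. The ratio of Pdha1 to Dlat differed by -0.37 (pooled SD of replicates 0.099) and that of Pdhb to Dlat by -0.21 (SD 0.045). The ratio of Pdha1 to Pdhb differed by -0.16 (SD 0.092). All 3 were lower in both siGPR17 arrays than in both siNEG arrays, with an exact permutation p of 0.333 each. They are built from the same 3 genes and are not independent of each other. Without siNEG replicate 2 the difference for Pdha1 to Dlat was -0.28 and that of Pdha1 to Pdhb -0.074, and without siNEG replicate 1 they were -0.47 and -0.25.

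Pdk1 encodes a pyruvate dehydrogenase kinase that is a known target of the hypoxia-inducible factor HIF1. Its brightest probe, A_44_P622466, gave 437 and 478 in siNEG and 649.9 and 648 in siGPR17 arrays. Both siGPR17 arrays were nearly equal and above both siNEG arrays. The log2 fold change was 0.51 (SE 0.095, 95% confidence interval 0.24 to 0.77, adjusted p = 0.210 from limma), higher than in 96.5% of the tested genes. Over the alternatives it lay between 0.43 and 0.63 and the adjusted p between 0.0417 and 0.679.

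The gene has 3 further probes, and each was higher in both siGPR17 arrays. A_43_P15169 gave 272 and 334 in siNEG and 439 and 449.6 in siGPR17 arrays (log2 fold change 0.56). A_44_P139718 gave 126 and 120.4 in siNEG and 196 and 221 in siGPR17 arrays (log2 fold change 0.76). The dimmest, A_43_P10378, gave 50.4 and 55.5 in siNEG and 70.1 and 78.7 in siGPR17 arrays (log2 fold change 0.49), and its raw signal was only 1.69 to 2.09 times the local background. The 4 probes share their gene and are not independent measurements of it. The files list 3 of them under a predicted transcript and only A_44_P139718 under the curated one.

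Pdk2 encodes the kinase isoform with the broadest tissue distribution. Its probe, A_42_P472375, gave 2018 and 2261 in siNEG and 2269.6 and 2416 in siGPR17 arrays. The groups were separate only by the small gap between 2261 and 2269.6, and the log2 fold change of 0.13 (SE 0.11, 95% confidence interval -0.16 to 0.42) was within its error. Its adjusted p was 0.560 in limma. It was 0.051 without siNEG replicate 1, 0.21 without siNEG replicate 2 and 0.26 with the E1A spike-in scaling.

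Pdk3 was lower. This isoform is known for its high activity and its low sensitivity to inhibition by pyruvate, and its probe, A_44_P991682, gave 969.0 and 968.4 in siNEG and 739 and 802 in siGPR17 arrays. The siNEG arrays were almost equal, and both siGPR17 arrays lay below them. The log2 fold change was -0.33 (SE 0.093, 95% confidence interval -0.59 to -0.075, adjusted p = 0.248 from limma), and 9.91% of the tested genes were lower. It kept its direction in every alternative run, between -0.39 and -0.20, with adjusted p between 0.0892 and 0.773.

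Pdk4, the isoform that fasting and fatty acids raise in muscle and heart, reached the level of well above background on 0 of 4 arrays. Its probe, A_44_P231269, gave normalized signals of 3.70 and 5.36 in siNEG and of 3.74 and 3.47 in siGPR17 arrays, from raw signals between 0.754 and 0.912 times the local background. No fold change is given for it, and the arrays give only a bound on its level. The 3 pairs of kinases that include it could not be compared.

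Within arrays the ratios of the kinase isoforms differed between the groups. The log2 ratio of Pdk1 to Pdk3, relative to the siNEG mean, was -0.066 and 0.066 in siNEG and 0.90 and 0.78 in siGPR17 OPCs. The siGPR17 arrays were far from the siNEG arrays, and the ratio was 1.79-fold higher (log2 difference 0.84, pooled SD of replicates 0.090). The ratio of Pdk2 to Pdk3 differed by 0.46 (SD 0.084) and that of Pdk1 to Pdk2 by 0.37 (SD 0.050), both without overlap of the groups. For all 3 the exact permutation p was 0.333. These ratios are built from the same 3 genes and are not independent of each other. The difference for Pdk1 to Pdk3 lay between 0.75 and 0.91 over the alternatives.

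Pdp1 encodes a catalytic subunit of the phosphatase that removes the kinases' phosphate. Its probe, A_43_P14919, gave 499 and 502 in siNEG and 479.6 and 457 in siGPR17 arrays. Both siGPR17 arrays were lower, by little, with a log2 fold change of -0.097 (SE 0.087, 95% confidence interval -0.34 to 0.14, adjusted p = 0.604 from limma). With an array left out it lay between -0.13 and -0.062. Its sign turned to 0.031 when arrays were scaled on their E1A spike-in probes. That scaling moved the median of all genes to 0.14, and relative to this median the change of Pdp1 was -0.11 and that of Ldhb -0.019, as it was with the main scaling.

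**Figure D2:**
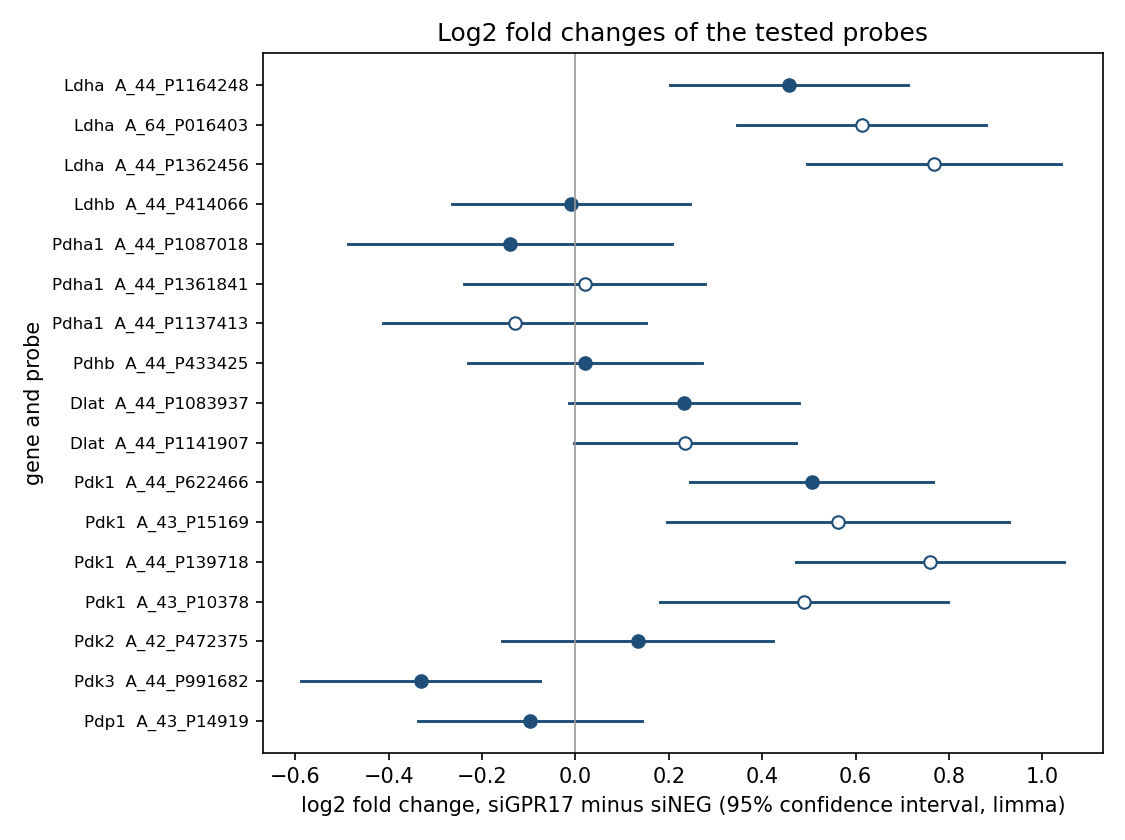
Log2 fold change, siGPR17 minus siNEG, of the 17 tested probes with the 95% confidence interval from limma (filled, brightest probe of the gene; open, other probes). The intervals of the 3 Ldha and 4 Pdk1 probes lie above 0 and that of Pdk3 below it, and all others include 0.

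Counted by probe, 3 of the 17 tested probes reached a fold change of 1.5, A_64_P016403 and A_44_P1362456 of Ldha and A_44_P139718 of Pdk1, against 6.64% of all tested probes. In none of the genes was it the brightest probe. Limma called 0 of the 17 (0.00357% of all probes). With the trend option it called all 3 (420 of 28016 probes in all), with adjusted p of 0.0304 and 0.0189 for Ldha and of 0.0356 for Pdk1. With normexp it called 1, A_44_P1362456 of Ldha (adjusted p = 0.0190), against 0.864% of all probes. A call for Ldha and Pdk1 thus depended on the probe, the background correction and the spread model, while the direction did not. Of the 17 probes 10 were higher and 3 lower without overlap of the groups, beside 52.6% of all tested probes that did not overlap either way, and probes of a gene share its transcripts.

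**Figure D3:**
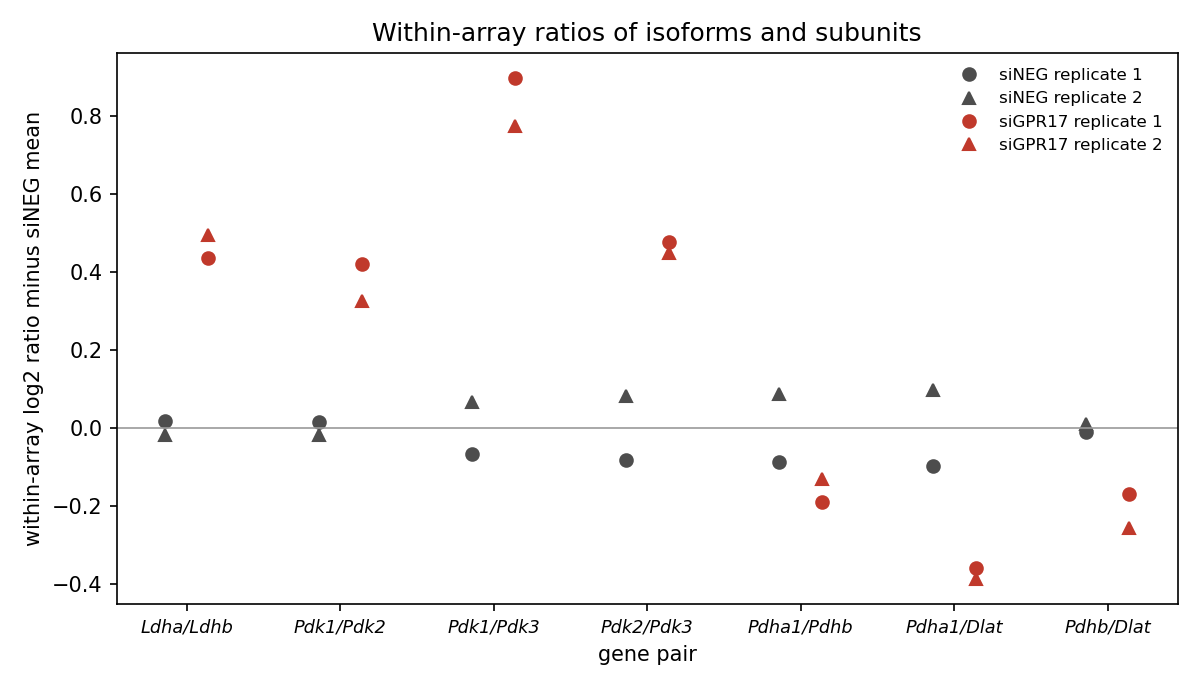
Within-array log2 ratio of the brightest probes of each gene pair, minus the mean of the siNEG arrays, on each of the 4 arrays (circles, replicate 1 and triangles, replicate 2). The siGPR17 arrays lie above the siNEG arrays for Ldha to Ldhb and for the 3 kinase pairs and below them for the 3 subunit pairs, with the largest difference, 0.84, in Pdk1 to Pdk3.

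The genes whose pattern over the 4 arrays was nearest to that of Ldha, by the Euclidean distance between centred log2 values, were Slc29a3, Usp25 and Zfp945, at distances of 0.012, 0.024 and 0.027. For Pdk1 they were Vat1, Anxa11 and Samd5, at 0.028, 0.028 and 0.032. With 4 arrays many genes lie close to any pattern, so these names describe these arrays alone.

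The remaining genes of the pyruvate dehydrogenase complex and of its lipoylation were higher in 4 of 5 cases, beside 52.0% of all tested genes, with a median log2 fold change of 0.24 against 0.0099 over all genes. Dld, which encodes the E3 subunit that reoxidises the lipoyl group, had a log2 fold change of 0.24 (SE 0.084), with signals of 5221 and 5228 in siNEG and of 6169.7 and 6187 in siGPR17 arrays. Lipt1, a lipoyl transferase, had one of 0.43 (SE 0.086, other probe 0.29), and Pdpr, the regulatory subunit of the phosphatase, one of 0.31 (SE 0.086). Both were dim, with raw signals of 2.47 to 3.03 times the local background for Lipt1 and 1.83 to 1.89 times for Pdpr. Pdp2, the other phosphatase, had 0.13 (SE 0.092), with the groups apart as in Dld, Lipt1 and Pdpr. Thus 4 of 5 genes were higher without overlap, against 28.1% of all genes. Lias, the lipoic acid synthase, overlapped between the groups at -0.035 and was above 0 under both spike-in scalings and without siGPR17 replicate 2 (0.010). With an array left out Pdp2 lay between 0.080 and 0.18. Limma called 0 of these 5 genes, as did the methods' t-test, the trend option and normexp, and 3 had an unadjusted p under 0.05 in limma (16.2% of all genes). Lipt2 and Ldhc were too dim to be tested, and no probe could be matched to Pdhx or Ldhd.

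The 16 tested genes of glucose uptake and glycolysis were higher in 12 cases, all without overlap (28.1% of all genes), and lower in 4, of which 2 did not overlap (25.3%), and under both spike-in scalings 14 were higher. Their median log2 fold change was 0.38, against 0.0099 over all genes, and 0.51 with the E1A spike-in scaling, against 0.14. Limma and the methods' t-test called 0 of them, and an unadjusted p under 0.05 in limma was given to 11 higher and 1 lower gene (7.43% and 8.73% of all genes). Eno2 and Pfkl, an enolase and a phosphofructokinase, had log2 fold changes of 0.66 (other probe 0.57) and 0.79 and were called with the trend option (1.58% of all genes) and with normexp (0.961%). Gpi, the glucose-6-phosphate isomerase, had 0.57, short of 1.5-fold, and was called only with normexp, where it had 0.63. Hexokinase gene Hk2 had a log2 fold change of 0.51 (SE 0.15), and Pfkm, the muscle phosphofructokinase, one of -0.34 (SE 0.11). Without siNEG replicate 1 that of Hk2 was 0.33, and without siNEG replicate 2 it was 0.69.

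Of 6 genes that carry pyruvate and lactate across membranes, 3 had a log2 fold change above 0 and 3 below it, with a median of 0.0034, while with quantile normalization 2 were above 0 and with the E1A spike-in scaling 5. Slc16a3, the lactate exporter MCT4, gave signals of 29.5 and 28.3 in siNEG and of 41.1 and 51.5 in siGPR17 arrays, a log2 fold change of 0.67 (SE 0.14, adjusted p = 0.214 from limma). Slc16a7, the high-affinity transporter MCT2, gave 55.4 and 55.2 in siNEG and 41.5 and 47.3 in siGPR17 arrays, a log2 fold change of -0.32 (SE 0.11, adjusted p = 0.279 from limma). Both were dim but well above background on all 4 arrays. In neither did the groups overlap, which was a condition for naming them.

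Of 13 tested genes for other fates of pyruvate and acetyl-CoA, 10 had a log2 fold change above 0, with a median of 0.099, against 9 with quantile normalization, 12 with the E1A spike-in scaling and 8 without siNEG replicate 1. By name they include Acat2, of cytosolic acetoacetyl-CoA formation, at 0.41, the alanine aminotransferase gene Gpt at 0.39, malic enzyme Me1 at 0.33 and the citrate carrier Slc25a1 at 0.33. The mitochondrial alanine aminotransferase Gpt2 was at -0.31, but its other probe overlapped between the groups at -0.021. The 3 other Acat2 probes lay between 0.20 and 0.31. Slc25a1 was at 0.14 without siNEG replicate 1 and 0.52 without siNEG replicate 2, and Gpt2 at -0.48 and -0.15. In the brightest probes of these 5 the groups did not overlap, which was a condition for naming them, and no probe could be matched to Pcx. Among 7 genes of the sister complexes for 2-oxoglutarate and branched-chain keto acids, 4 were above 0, with a median of 0.058, and 5 with median scaling and both spike-in scalings. Bckdk, the branched-chain counterpart of the Pdk kinases, gave 2572 and 2548 in siNEG and 1974 and 2039.7 in siGPR17 arrays, a log2 fold change of -0.35 (SE 0.086, adjusted p = 0.227 from limma).

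Of 11 known regulators of the transcription of these genes, 4 were above 0 and 7 below it, with a median log2 fold change of -0.096 against 0.0099 over all genes. With the E1A spike-in scaling 7 were above 0 and the median was 0.033 against 0.14 over all genes, so the turn of sign comes with the shift of all genes, as do the higher counts of the other lists under that scaling. Ppara, a fatty acid receptor known to act on Pdk4, had a log2 fold change of -0.64 (SE 0.18, other probe -0.30). Epas1, the HIF2 alpha subunit, had one of -0.45 (SE 0.13). In neither did the groups overlap, which was a condition for naming them. In the transport, other fates, sister complex and regulator lists alike, limma, the methods' t-test, the trend option and normexp called 0 genes, and an unadjusted p under 0.05 in limma was given to 2 of 6, 3 of 13, 1 of 7 and 2 of 11 genes. Of all genes 16.2% had such a p, and whether these counts differ from that share was not tested.

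Promoter sequences are shown for Ldha and Pdk1, which were higher, and Pdk3, which was lower. They come from the RefSeq table of the assembly GRCr8, which had an entry for 9 of the 10 genes and none for Pdp1. The window is the 250 bases before the gene's start, read 5′ to 3′ on the gene's strand, or the part of it that lies outside the annotated gene. Capitals mark each match to the core of the hypoxia response element, ACGTG or GCGTG, on either strand. A CACGTG counts once on each strand, and matches may share bases. The Ldha window is chr1:106507842-106508091 on the plus strand, that of Pdk1 chr3:77113264-77113463 on the plus strand and that of Pdk3 chrX:62547372-62547621 on the minus strand.
Ldha: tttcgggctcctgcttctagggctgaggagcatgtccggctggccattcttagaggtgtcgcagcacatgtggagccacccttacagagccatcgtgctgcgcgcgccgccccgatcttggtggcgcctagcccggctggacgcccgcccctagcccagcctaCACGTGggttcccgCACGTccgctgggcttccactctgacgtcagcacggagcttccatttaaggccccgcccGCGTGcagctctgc
Pdk1: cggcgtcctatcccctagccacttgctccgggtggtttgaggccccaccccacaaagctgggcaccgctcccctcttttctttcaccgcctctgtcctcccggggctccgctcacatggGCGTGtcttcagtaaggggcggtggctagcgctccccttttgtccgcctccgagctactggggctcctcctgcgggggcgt
Pdk3: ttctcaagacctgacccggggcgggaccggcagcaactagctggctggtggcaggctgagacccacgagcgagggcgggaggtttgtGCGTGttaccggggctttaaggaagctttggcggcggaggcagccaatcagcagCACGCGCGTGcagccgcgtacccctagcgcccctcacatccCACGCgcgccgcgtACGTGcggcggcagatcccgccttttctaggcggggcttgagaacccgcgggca

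In the 250 bases the core matched 4 times in Ldha, 2 times in Pdk1, with 1 of them in the 200 bases printed, and 5 times in Pdk3. It matched 1 time in Ldhb, 3 times in Pdha1, 5 times in Pdhb, 3 times in Dlat, 2 times in Pdk2 and 0 times in Pdk4. Of 33469 promoters of this length, 36.7% held at least 1 match, 16.0% at least 2 and 6.21% at least 3. Pdk3, which was lower, and Pdhb, whose groups overlapped, held the most. A match is a description of the letters and not a site where a factor was found.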

How the data were processed

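The authors deposited spot intensity tables, 1 for each array, from Feature Extraction 10.7.3.1, corrected for background but not normalized between arrays. The tables also hold the spot and background medians as uncorrected intensities. From the deposited intensity, log2 values were computed and the array's 75th percentile over non-control probes subtracted. Spots that were controls or bore outlier marks were left out, and spots of a probe were averaged. A probe counted as well above background on an array where at least 0.5 of its spots were. Values on all arrays existed for 45565 probes, of which 28016 entered limma 3.58.1 (lmFit and eBayes, two-sided, no block) in R 4.3.3, with Benjamini-Hochberg adjustment over all of them. Accessions matched without versions to RefSeq (GRCr8) named 21093 probes, and 11656 genes were tested. The code was tested on simulated data.

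The members and lists were chosen with earlier results of these data known. All members and Gpr17 are named, as are all genes of the list of the pyruvate complex and lipoylation. The genes nearest to Ldha and to Pdk1, 3 each, are named too. In the other lists those named have groups that do not overlap and a log2 change of at least 0.3, up to 4 in each direction. Alternatives were normexp (offset 50, on the spot median), quantile, median and spike-in scaling, other filters and spread models, the methods' t-test, the replicate block, leaving out each array, and another choice of probe. The rule of at least 0.5 of the spots was itself settled after the data were seen. Requiring more than 0.5, and scaling on the E1A spike-in probes alone, were also chosen after the data were seen, and their values are in the closing section or the text.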

Additional observations from a re-analysis of the deposited data

How the results depend on the processing

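Limma called 1 of 28016 probes, and it is not of the genes described. The count was 242 after normexp and 420 under eBayes with trend and robust. It was 1 when more than 0.5 of a probe's spots had to be well above background, a rule added after the data were seen. It was 0 with the methods' t-test, without a filter on dim probes, with a filter on all 4 arrays, with the E1A spike-in scaling and with any 1 array left out (0 to 0). Calls of member genes were 0 in all 16 alternatives, 1 of which took any tested probe in limma. Genes of the lists past the thresholds were 0, except 3 after normexp and 2 under eBayes with trend and robust. Whether same-numbered samples are paired is not stated. Their deviations from the group means correlated at -0.065 over the tested probes, which with 2 samples per group does not settle it. Replicate 1 of each group lay in row 1 of the slide and replicate 2 in row 2. With the replicate as a block 0 probes were called.

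Ldha, Pdha1, Dlat, Pdk1, Pdk2 and Pdk3 kept their direction in every alternative run, but Pdk2 lay between 0.051 and 0.26 and Pdha1 between -0.28 and -0.0041. Ldhb turned to 0.040 with the planned spike-in scaling (11 probes), to 0.12 with the 8 E1A probes alone, to 0.0017 without siGPR17 replicate 1 and to 0.049 without siNEG replicate 2, in a range of -0.067 to 0.049 with an array left out. Pdhb turned to -0.029 without siNEG replicate 1, in a range of -0.029 to 0.070 with an array left out, and was 0.15 with the E1A probes, and Pdp1 turned to 0.031 with the E1A probes. The E1A scaling was added after the values of the spike-ins had been seen, and it moved the median of all genes to 0.14, relative to which Pdp1 was at -0.11 and Ldhb at -0.019. Gpr17 had a limma adjusted p of 0.0220 after normexp (-0.66) and of 0.0152 under eBayes with trend and robust (-0.78). The change of the Ldha to Ldhb ratio, 0.47, was 0.51 with normexp, 0.42 with quantile normalization, 0.62 with the mean of all probes, and 0.44 to 0.50 with an array left out. The cause of these differences was not tested. Leaving out an array leaves 1 sample in its group, assumed to vary like the other. Signal over background limits Pdk4, Lipt2 and Ldhc.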
